A study of Bos grunniens with 12 samples.

Results

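The 87 rows of the expression table described here carry 66 gene symbols from families of enzymes that write or erase methyl and acetyl groups on histones, and of bromodomain proteins that read acetyl groups. Some members, such as SETD3, act on other proteins, and histone modifiers stands below for the whole list. The rows were chosen by symbol only, as every row whose symbol starts with KDM, KMT, HDAC, SETD, PRMT, EHMT, SUV39 or EZH, or with KAT, SIRT or BRD followed by a digit, among 20953 rows. By role they comprise 23 rows of lysine methyltransferases, 17 of lysine demethylases, 10 of acetyltransferases, 12 of HDAC deacetylases, 8 of sirtuins, 12 of arginine methyltransferases and 5 of bromodomain genes. The table gives 17 of the symbols on 2 gene identifiers and HDAC4 and KAT7 on 3, so counts and tests are by row, and not every such row is given below.

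Histone tails are methylated on lysine by SET domain enzymes and on arginine by the PRMT enzymes, and the KDM demethylases remove the lysine methyl groups. Acetyl groups are added by KAT enzymes, removed by the zinc-dependent HDAC and the NAD-dependent SIRT deacetylases, and bound by bromodomains. In the testis these marks are rewritten as germ cells pass through meiosis, and strong acetylation of histones precedes their replacement by transition proteins and protamines in elongating spermatids.

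Testis tissue of yaks (Bos grunniens) came from 3 animals of 1.5 years, labelled 18M, and 3 animals of 5 years, labelled 5Y, with no treatment, genotype or strain given. Each animal gave 1 library of mRNA fragments bound by an antibody against N6-methyladenosine (m6A) and 1 input library of the unselected poly(A) RNA, 12 libraries in all. The growth notes place 1.5 years before and 5 years after sexual maturity, whereas another field of the record, for developmental stage, has the stages the other way round in all samples. The article gives the same ages but uses the letters M for the 5-year and Y for the 1.5-year animals, the reverse of the record. The 18M testes were taken by castration and the 5Y testes after slaughter, so age and collection cannot be told apart.

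Levels are FPKM of the 6 input libraries (fragment counts corrected for transcript length and for library size), given as the mean ± SD of 3 animals. A library's FPKM summed to 133504 to 139921 in 18M and to 116187 to 131024 in 5Y, which do not overlap. Levels and sums below were not rescaled to a common total unless stated. The depth of a library relative to 18M replicate 1, read from the spacing of low values, was 0.993 to 1.1. Markers of elongating spermatids were lower at an unadjusted p under 0.05 in the libraries labelled 5Y for 5 of 5 tested genes (summed FPKM 1261 to 1320 in 18M, and 282, 911 and 797 in 5Y replicates 1, 2 and 3), with PRM1, PRM2, PRM3, TNP2, AKAP4 and SMCP without a row under their symbol. Round spermatid markers were lower for 6 of 8 (187 to 260 against 52.2 to 193), Sertoli cell markers higher for 8 of 9 (96.3 to 111 against 137 to 290), and peritubular and stromal markers higher for 7 of 10 (32.1 to 36.9 against 48.6 to 79.8). Spermatocyte markers passed for 0 of 9 tested, and spermatogonial markers were higher for 1 of 7. Macrophage markers were higher for 3 and lower for 2 of 8, endothelial markers higher for 1 of 5, and the Leydig cell markers lower for 1 of 3 tested. Of the erythroid markers none passed the minimum level. At the same threshold 14.2% of all tested rows were higher and 10.9% lower. After Benjamini-Hochberg adjustment in limma over all tested rows, 0 markers had an adjusted p under 0.05. The largest rises among called markers were in PTPRC (1.55), C1QB (1.30) and ID4 (1.10), and the largest falls in SPACA4 (-1.61), ODF1 (-1.40) and SPEM1 (-1.40), all as log2 differences. These postmeiotic markers run against the maturity stated for the 5-year animals. The study's qRT-PCR, reported as matching its RNA-seq, covered RNA methylation genes and genes chosen for verification. Its primer list holds none of these markers, so it did not measure them. The genes it did measure were not compared with the input libraries here. The study's own histology, not analysed here, was reported in the direction of the stated ages. 18M and 5Y therefore stand below for the libraries as labelled. The part of cell composition in the values of the histone modifiers was not tested, and in whole tissue fewer cells of a type cannot be told apart from less RNA per cell.

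**Figure D1:**
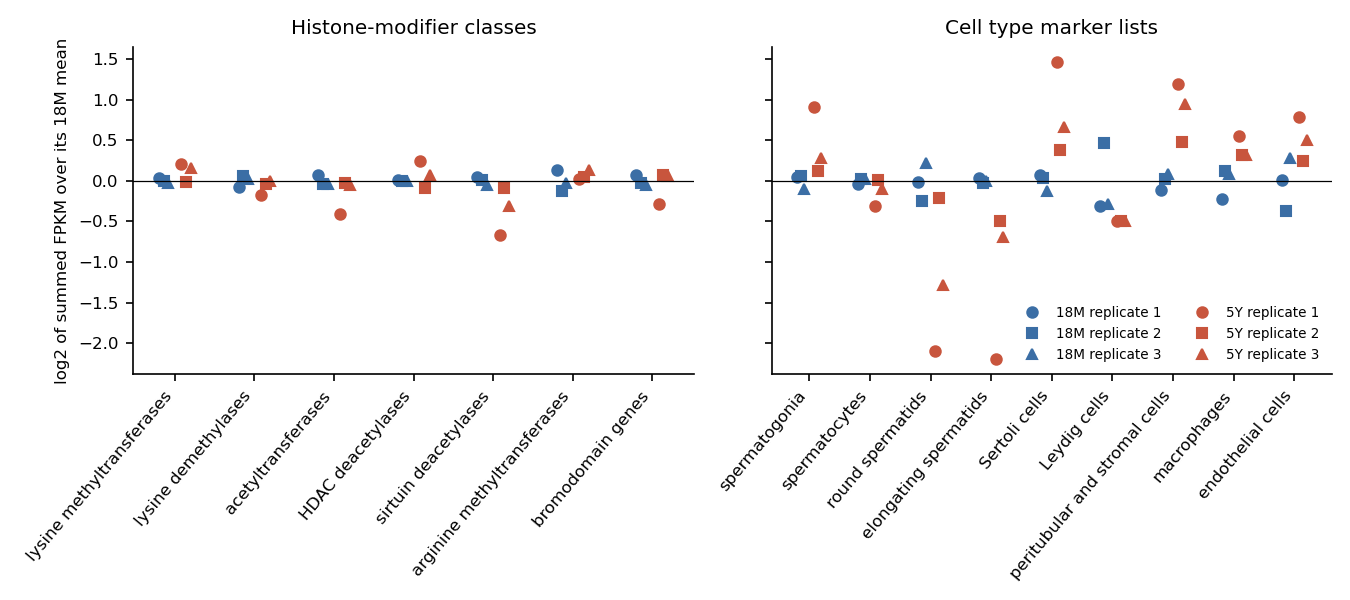
Summed FPKM of each class of histone modifier (left) and of each cell type marker list (right), as the log2 ratio to the mean of the 18M libraries, with 1 point per input library (blue 18M, red 5Y; shape gives the replicate). The class sums stay nearer to their 18M means than the spermatid and Sertoli sums, and 5Y replicate 1 lies farthest out for most lists.

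Most of the histone modifiers were detected. A mean of at least 0.5 FPKM was reached by 72 rows, covering 64 symbols, and these rows entered the test. Of the other 15 rows, 6 were listed at 0 in every library and 9 were above 0 in at least 1 library. PRMT8 and KDM8 have no tested row. The median level of the tested rows was 5.96 FPKM, against 4.34 FPKM over all 12437 tested rows, and 24 rows exceeded 10 FPKM. The demethylase KDM5B (66.1 FPKM over the 6 libraries), the BET bromodomain gene BRD2 (60.7) and the acetyltransferase KAT8 (58.7) had the highest levels. Summed over the 72 tested rows, the histone modifiers reached 774 to 803 FPKM in 18M and 732 to 804 FPKM in 5Y, which overlap. These sums were not corrected for FPKM totals, which were lower in every 5Y library than in any 18M library. The overlap is therefore one of uncorrected sums only.

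Comparing the ages with limma on log2(FPKM + 0.1), 14 of the 72 tested rows were higher in 5Y at an unadjusted p under 0.05 (19.4%, against 14.2% of all tested rows) and 3 were lower (4.17%, against 10.9%). After Benjamini-Hochberg adjustment over all genes in limma, 0 rows had an adjusted p under 0.05, against 4 of all tested rows or 0.0322%, and the smallest adjusted p of the histone modifiers was 0.154. All 3 libraries of 5Y lay above all 3 of 18M for 17 rows (23.6%, against 19.8%) and below them for 6 rows (8.33%, against 13.9%). The median log2 difference, 5Y minus 18M, was 0.07 over the 72 rows and 0.04 over all tested rows, and 43 of the 72 differences were positive (59.7%, against 53.5%). Calls in the following text are at the unadjusted threshold, and all 17 are named. KMT5C, the called row of KMT2C and the called row of SETD2 fall outside the naming rule and were named after their values were seen.

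**Figure D2:**
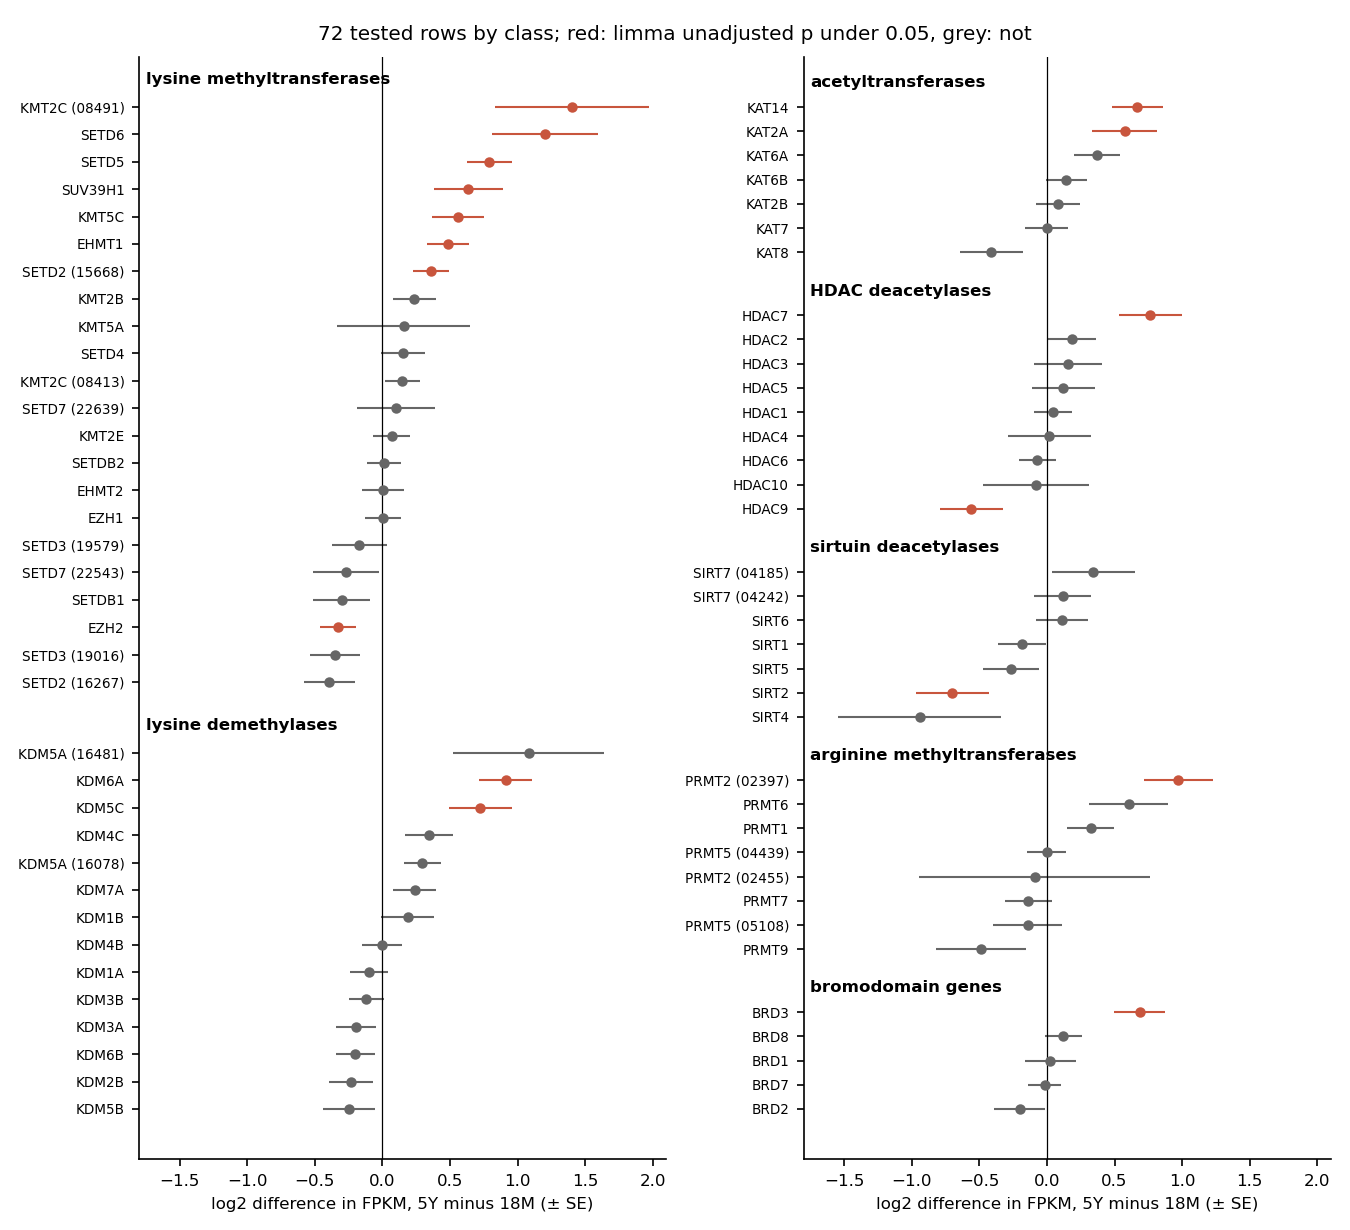
Log2 difference in input FPKM, 5Y minus 18M, with its SE from limma, for each of the 72 tested rows by class; the digits after a symbol end its gene identifier where 2 rows share it. Red points have an unadjusted p under 0.05, of which 14 lie to the right of 0 and 3 (EZH2, HDAC9 and SIRT2) to the left.

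Among the lysine methyltransferases, 7 of 22 tested rows were higher and 1 was lower (31.8% and 4.55%, against 14.2% and 10.9% of all tested rows). SETD5 (ENSBGRG00000008315), a SET domain protein whose own catalytic activity is disputed, was measured at 4.55, 4.33 and 4.17 FPKM in 18M replicates 1, 2 and 3 and at 9.12, 6.47 and 7.43 FPKM in 5Y replicates 1, 2 and 3. Every 5Y library exceeded every 18M library, and the log2 difference was 0.79 ± 0.17 (SE; limma, unadjusted p = 0.00188, Benjamini-Hochberg adjusted p = 0.154). SETD6, which also methylates proteins other than histones, was at 1.63, 0.921 and 1.14 FPKM in 18M and at 5.13, 1.79 and 2.62 FPKM in 5Y. The 5Y libraries were all higher, with replicate 1 far above the other 2, and the difference was 1.20 ± 0.39 (limma, unadjusted p = 0.0176, adjusted p = 0.158). Leaving out 5Y replicate 1 brought the difference of SETD6 to 0.80, and leaving out 18M replicate 2 ended its call.

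Enzymes of the repressive mark on lysine 9 of histone H3 came next. EHMT1 (GLP), the partner of EHMT2 (G9a) in placing its lower methyl states, was at 4.14 ± 0.16 FPKM in 18M and 5.86 ± 0.85 FPKM in 5Y, without overlap (log2 difference 0.48 ± 0.16, limma unadjusted p = 0.017), and EHMT2 stood at 5.91 ± 0.88 and 5.89 ± 0.33 FPKM. SUV39H1, which adds the third methyl group in heterochromatin, was at 1.88, 1.13 and 1.46 FPKM in 18M and at 3.03, 1.95 and 2.11 FPKM in 5Y. The lowest 5Y library was just above the highest 18M library, and the difference was 0.64 ± 0.26 (limma, unadjusted p = 0.042, adjusted p = 0.188). SETDB1, which silences retroelements through the same mark, was at 22.3 ± 1.2 and 18.5 ± 4.6 FPKM. Its relative SETDB2 lay between 7.11 and 7.72 FPKM in all 6 libraries, with a 95% interval of the difference from -0.29 to 0.30. Leaving out 18M replicate 1 or 3 ended the call of EHMT1 (leave-one-out differences 0.38 to 0.59), and leaving out 18M replicate 2 or 3 or 5Y replicate 1 or 3 that of SUV39H1 (0.45 to 0.81).

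EZH2, the catalytic subunit of Polycomb repressive complex PRC2, was the lysine methyltransferase with a call in the other direction. It was at 13.9, 13.5 and 14.9 FPKM in 18M and at 10.4, 11.7 and 11.6 FPKM in 5Y. The 2 ages did not overlap, and the log2 difference was -0.33 ± 0.13 (limma, unadjusted p = 0.0407, adjusted p = 0.185). Its paralog EZH1, which forms the less active form of PRC2, stood at 6.61 ± 0.37 and 6.63 ± 0.34 FPKM (95% interval of the difference -0.31 to 0.31). The call of EZH2 was lost without any 1 of the 18M libraries or without 5Y replicate 3 (differences -0.36 to -0.28). It was also lost after scaling libraries to a common total, after quantile normalization, with eBayes without trend and with a replicate block.

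Of the remaining methyltransferases, KMT5C, which trimethylates lysine 20 of histone H4, was at 2.89 ± 0.59 FPKM in 18M and 4.28 ± 0.58 FPKM in 5Y (0.56 ± 0.19, limma unadjusted p = 0.0226). SETD2, the enzyme of trimethylated lysine 36 on histone H3, stands on 2 rows with differences of opposite sign, of which 1 was called. ENSBGRG00000015668 was at 6.32 ± 0.48 and 8.14 ± 0.29 FPKM (0.36 ± 0.13, limma unadjusted p = 0.0298), and ENSBGRG00000016267 at 4.59 ± 0.93 and 3.43 ± 0.30 FPKM (-0.39 ± 0.19, unadjusted p = 0.0747). KMT2C, an enhancer methyltransferase of lysine 4 on histone H3, differed between its rows in spread. ENSBGRG00000008413 held 4.61 to 4.92 FPKM in 18M and 5.11 to 5.65 FPKM in 5Y, without overlap. ENSBGRG00000008491 ranged from 6.54 to 17.4 FPKM in 18M and from 12.1 to 52.8 FPKM in 5Y, which overlap (1.40 ± 0.57, limma unadjusted p = 0.0417). Whether such rows are parts of 1 gene or copies is not stated in the table. The call of KMT5C was lost without 18M replicate 2 or 3 or 5Y replicate 1 (leave-one-out differences 0.46 to 0.72), that of SETD2 without any 1 of the 18M libraries or 5Y replicate 3 (0.30 to 0.40), and that of KMT2C without 18M replicate 1 or 3 or 5Y replicate 1 or 3 (0.90 to 1.95).

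KMT2B, a promoter methyltransferase of lysine 4, had 5.65 ± 0.28 and 6.72 ± 1.08 FPKM in 18M and 5Y. SETD3, which methylates a histidine of actin and was the most abundant symbol of this class, had 36.7 ± 4.0 and 29.0 ± 5.3 FPKM on its higher row (ENSBGRG00000019016; -0.35 ± 0.18, limma unadjusted p = 0.0986). Its second row gave 24.0 ± 3.5 and 21.5 ± 4.5 FPKM.

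Of the 14 tested rows of lysine demethylases, 2 were higher at the threshold and 0 were lower (14.3% and 0%, against 14.2% and 10.9% of all tested rows). Without overlap, 5 rows were higher and 3 lower (35.7% and 21.4%, against 19.8% and 13.9%). The called pair, KDM6A and KDM5C, both lie on the X chromosome. KDM6A (UTX), which removes the Polycomb mark from histone H3, was at 1.72, 1.93 and 1.61 FPKM in 18M and at 4.2, 2.84 and 3.22 FPKM in 5Y. The lowest 5Y library was well above the highest 18M library, and the log2 difference was 0.91 ± 0.20 (limma, unadjusted p = 0.00215, adjusted p = 0.154). KDM6B (JMJD3), which removes the same mark, held 19.1 to 19.3 FPKM in 18M and 14.8, 16.4 and 19.1 FPKM in 5Y (-0.20 ± 0.15, limma unadjusted p = 0.208). KDM6A stood below KDM6B in every library, and KDM6B was lower in each 5Y library than in any 18M library, by a margin that did not pass the test.

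KDM5C, which removes methyl groups from lysine 4 of histone H3, was at 2.56, 2.36 and 2.61 FPKM in 18M and at 5.76, 3.10 and 4.17 FPKM in 5Y. All 5Y libraries were higher, by 0.72 ± 0.23 on the log2 scale (limma, unadjusted p = 0.0166, adjusted p = 0.157), and the call was lost without 18M replicate 2 (leave-one-out differences 0.50 to 0.94). KDM5A, with the same activity, was at 6.07 ± 0.38 and 7.48 ± 0.61 FPKM on its higher row (ENSBGRG00000016078; 0.30 ± 0.14, unadjusted p = 0.0695). KDM5B, the most abundant demethylase, was at 62.5, 78.3 and 73.7 FPKM in 18M and at 48.5, 67.8 and 65.9 FPKM in 5Y. Its ages overlapped (-0.24 ± 0.19, limma unadjusted p = 0.242). KDM7A, which acts on lysines 9 and 27 of histone H3, was at 6.69 ± 0.54 and 7.95 ± 1.17 FPKM. The flavin-dependent demethylases KDM1A (19.8 ± 0.4 and 18.6 ± 2.0 FPKM) and KDM1B (4.16 ± 0.96 and 4.69 ± 0.53 FPKM) overlapped between the ages. So did KDM4B, at 7.08 ± 0.48 and 7.08 ± 0.88 FPKM, a demethylase of lysine 9.

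**Figure D3:**
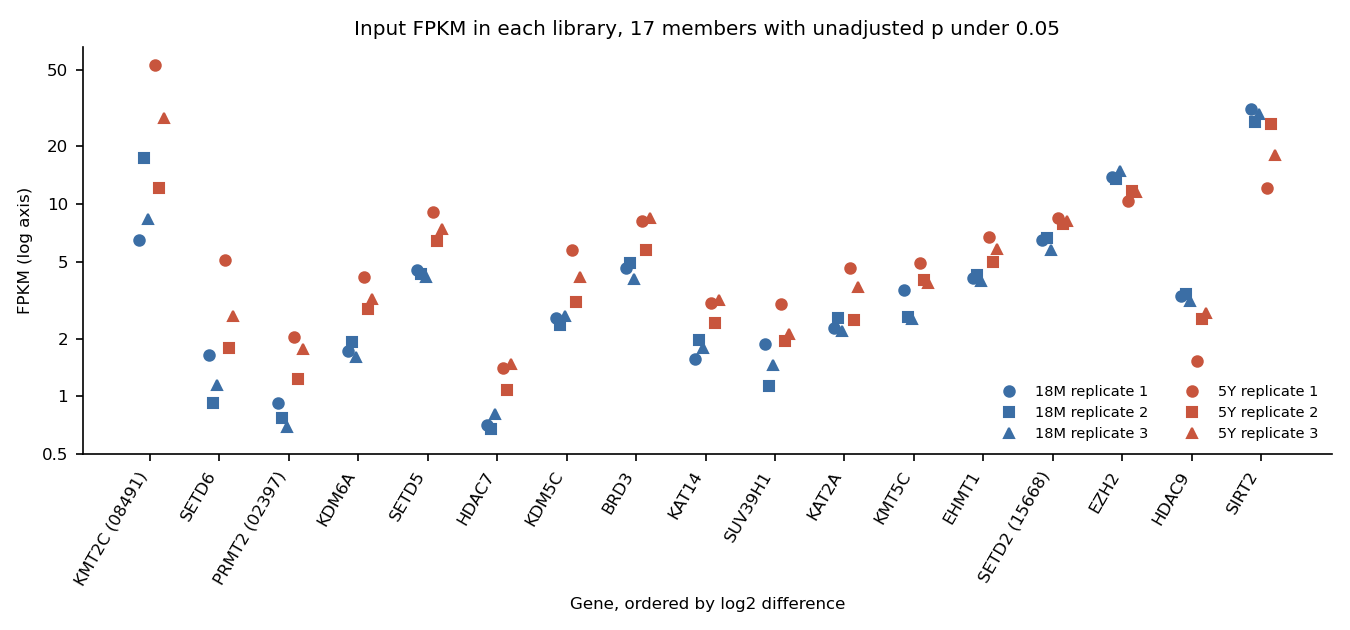
Input FPKM (log axis) in each library of the 17 rows with an unadjusted p under 0.05, ordered by log2 difference (blue 18M, red 5Y; shape gives the replicate). The ages do not overlap for 15 rows and overlap for KMT2C and KAT2A, and 5Y replicate 1 is the outermost 5Y library for 14 rows.

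Among the acetyltransferases, 2 of 7 tested rows were higher and 0 lower (28.6% and 0%, against 14.2% and 10.9% of all tested rows). KAT14, a subunit of the ATAC acetyltransferase complex, was at 1.57, 1.96 and 1.79 FPKM in 18M and at 3.08, 2.40 and 3.18 FPKM in 5Y. All 5Y libraries were higher (0.67 ± 0.19; limma, unadjusted p = 0.00845, adjusted p = 0.154). KAT2A (GCN5), the catalytic subunit of the SAGA complex, was at 2.34 ± 0.20 FPKM in 18M and 4.68, 2.51 and 3.72 FPKM in 5Y. Its ages overlapped through 5Y replicate 2 (0.58 ± 0.24, limma unadjusted p = 0.047), and its call held in 1 of 6 leave-one-out fits, that without 5Y replicate 2, with differences from 0.38 to 0.81. KAT2B (PCAF), its paralog, was at 4.62 ± 0.55 and 4.89 ± 0.62 FPKM. KAT6A and KAT6B, paralogs of the MYST family, were at 3.79 ± 0.39 and 4.94 ± 0.73 FPKM (0.37 ± 0.17, limma unadjusted p = 0.0664) and at 3.29 ± 0.04 and 3.65 ± 0.44 FPKM. KAT8 (MOF), which acetylates lysine 16 of histone H4, was the most abundant of the class, at 71.7, 60.03 and 67.2 FPKM in 18M and 36.0, 63.8 and 53.4 FPKM in 5Y. 5Y replicate 1 was the lowest library, and the ages overlapped (-0.41 ± 0.23, limma unadjusted p = 0.118; -0.18 without that library).

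Of the 9 tested HDAC rows, 1 was higher and 1 was lower (11.1% each, against 14.2% and 10.9% of all tested rows). Both belong to class IIa, whose members shuttle between nucleus and cytoplasm. HDAC7 was at 0.712, 0.677 and 0.81 FPKM in 18M and at 1.41, 1.07 and 1.48 FPKM in 5Y. These levels are near the minimum of the test, and all 5Y libraries were higher (0.76 ± 0.23; limma, unadjusted p = 0.0132, adjusted p = 0.154). HDAC9 (ENSBGRG00000001751) was at 3.34, 3.41 and 3.12 FPKM in 18M and at 1.54, 2.53 and 2.71 FPKM in 5Y. All 5Y libraries were lower (-0.56 ± 0.23; limma, unadjusted p = 0.0456, adjusted p = 0.193). The class I enzymes HDAC1 (16.3 ± 1.6 and 16.7 ± 1.1 FPKM) and HDAC2 (14.4 ± 1.5 and 16.5 ± 3.0 FPKM), which share the Sin3, NuRD and CoREST complexes, overlapped, with 95% intervals of the difference from -0.29 to 0.38 and from -0.23 to 0.60. The call of HDAC7 was lost without 5Y replicate 3 (leave-one-out differences 0.68 to 0.90), and that of HDAC9 without any 1 of the 18M libraries or 5Y replicate 1 (-0.71 to -0.32).

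The sirtuins had a negative median difference (-0.19 over 7 tested rows, 3 of them positive), as did the arginine methyltransferases (-0.05 over 8). The summed sirtuin level was 64.2 to 68.9 FPKM in 18M against 42.1 to 63.0 FPKM in 5Y. This gap is narrow, and the sums were not corrected for FPKM totals, which were 137218 in 18M replicate 3 and 131024 in 5Y replicate 2. No separation of the ages is therefore read from these sums. SIRT2 and SIRT1 (means of 23.9 and 18.8 FPKM over the 6 libraries) had the highest levels in the sum. SIRT2, a largely cytoplasmic deacetylase of tubulin and of histone H4, was the 1 called sirtuin row and the most abundant sirtuin. This call makes 14.3% of the sirtuin rows lower, against 10.9% of all tested rows. SIRT2 was at 31.3, 26.8 and 29.4 FPKM in 18M and at 12.1, 26.0 and 18.1 FPKM in 5Y. The highest 5Y library was just below the lowest 18M library (-0.70 ± 0.27; limma, unadjusted p = 0.0356, adjusted p = 0.179). The call held in 1 of 6 leave-one-out fits, that without 5Y replicate 2, with differences from -0.97 to -0.42, and was lost after quantile normalization and with a replicate block. SIRT1, a nuclear deacetylase, was at 20.1 ± 3.2 and 17.6 ± 2.3 FPKM, and SIRT6, a chromatin-bound deacetylase, at 1.81 ± 0.26 and 1.97 ± 0.25 FPKM.

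Among the arginine methyltransferases 1 of 8 tested rows was higher and 0 lower (12.5% and 0%, against 14.2% and 10.9% of all tested rows). That row was 1 of 2 for PRMT2, ENSBGRG00000002397, at 0.923, 0.773 and 0.695 FPKM in 18M and at 2.05, 1.24 and 1.76 FPKM in 5Y. All 5Y libraries were higher (0.97 ± 0.26; limma, unadjusted p = 0.00649, adjusted p = 0.154). The other row of PRMT2, ENSBGRG00000002455, ranged from 0.341 to 3.04 FPKM in 18M and from 0.783 to 3.45 FPKM in 5Y, which overlap (-0.09 ± 0.85, limma unadjusted p = 0.917). PRMT1, the main enzyme of asymmetric arginine dimethylation, was at 17.7 ± 0.7 and 22.4 ± 4.3 FPKM. PRMT5, the main enzyme of symmetric dimethylation, was at 36.0, 33.4 and 33.9 FPKM in 18M and 20.7, 38.2 and 38.1 FPKM in 5Y on its higher row (ENSBGRG00000005108). The 5Y libraries lie on both sides of 18M there, and the difference was -0.14 ± 0.25 (limma, unadjusted p = 0.588). The other row of PRMT5, ENSBGRG00000004439, was at 12.8 ± 1.4 FPKM in 18M and 12.8 ± 0.8 FPKM in 5Y (-0.002 ± 0.14, limma unadjusted p = 0.987). On that row 5Y replicate 1 was at 13.4 FPKM, within the 18M range of 11.5 to 14.4 FPKM.

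Of the 5 bromodomain rows, BRD3 was the 1 called (20% higher, against 14.2% of all tested rows). This BET family reader of acetylated histones was at 4.67, 4.95 and 4.07 FPKM in 18M and at 8.17, 5.79 and 8.48 FPKM in 5Y. All 5Y libraries were higher (0.69 ± 0.19; limma, unadjusted p = 0.00819, adjusted p = 0.154). Its family member BRD2 was at 69.5, 61.3 and 63.2 FPKM in 18M and at 44.4, 65.5 and 60.5 FPKM in 5Y, with overlap (-0.20 ± 0.19, limma unadjusted p = 0.317).

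The following rows also fall outside the naming rule and were chosen after their values were seen. KDM4C, a demethylase of lysines 9 and 36, was at 3.20 ± 0.42 and 4.10 ± 0.65 FPKM (0.35 ± 0.18, limma unadjusted p = 0.0931), without overlap. KDM2B, which recruits Polycomb complex PRC1 to CpG islands, was at 2.29 to 2.37 FPKM in 18M and 1.82 to 2.24 FPKM in 5Y, and KDM3B, a demethylase of lysine 9, at 19.8 to 21.8 and 19.2 to 19.5 FPKM. Both lay lower in every 5Y library by differences that did not pass the test (limma, unadjusted p = 0.202 and 0.384). PRMT6, an arginine methyltransferase of histone H3, was at 8.99, 8.79 and 10.2 FPKM in 18M and at 20.4, 8.94 and 15.6 FPKM in 5Y. Its 5Y replicate 2 lay among the 18M libraries (0.60 ± 0.29, limma unadjusted p = 0.0763). SIRT4, a mitochondrial sirtuin, was spread widely within 5Y, at 0.26, 2.05 and 0.838 FPKM, against 1.28 to 1.99 FPKM in 18M. The second row of KDM5A ranged from 0.701 to 1.77 FPKM in 18M and was at 5.38, 1.56 and 1.37 FPKM in 5Y. BRD7, a subunit of a SWI/SNF remodelling complex, held 6.62 to 6.90 FPKM in all 6 libraries, with a 95% interval of the difference from -0.31 to 0.27. KAT7, the HBO1 acetyltransferase, was at 29.3 ± 3.0 and 29.3 ± 3.3 FPKM on its 1 detected row.

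One 5Y animal lay apart from the other 2 for many of these genes. 5Y replicate 1 held the highest or the lowest value of the 6 libraries in 48 of the 72 tested rows, against 12 to 24 rows for each other library, and it was the outermost 5Y library in 14 of the 17 called rows. These counts were not made over all tested rows, so whether they are particular to the histone modifiers was not tested. 5Y replicate 1 was also the library with the lowest FPKM total (116187), the lowest spermatid and the highest Sertoli marker sums. Among uncalled rows, leaving it out brought BRD2 to -0.04, KDM5B to -0.09, SETDB1 to -0.08, SIRT1 to -0.07, KDM6B to -0.12, SETD3 (ENSBGRG00000019016) to -0.21 and PRMT5 (ENSBGRG00000005108) to 0.15, and HDAC2 to 0.04, PRMT1 to 0.19, KMT2B to 0.12 and KAT6B to 0.07. Leaving it out ended the calls of HDAC9 (-0.32), KAT2A (0.38), KMT2C (0.90), KMT5C (0.46), SIRT2 (-0.42) and SUV39H1 (0.45). The calls of BRD3, KAT14, KDM6A, PRMT2 and SETD5 held under every alternative that was run. With all 6 libraries kept, 7 of the 17 calls were lost under at least 1 other setting, those of EZH2, HDAC9, KAT2A, KMT2C, SETD2, SIRT2 and SUV39H1. Leaving out 5Y replicate 2, the 5Y library with the highest spermatid marker sums, left 13 of the 72 rows with an adjusted p under 0.05 by limma (18.1%, against 19.3% of all tested rows), of which 12 were higher in 5Y. These 13 were SETD6, PRMT2, KDM6A, SETD5, HDAC7, KDM5C, BRD3, KAT14, EHMT1, KAT2A, the second row of KMT2C and PRMT6, and, lower, SIRT2.

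A ratio of paralogs within a library is little changed when all values of that library are multiplied by 1 factor. In 11 pairs with both genes tested, the log2 ratio of 6 did not overlap between the ages. This gives the smallest p that 3 against 3 libraries allow (exact permutation test, two-sided, p = 0.1, 0.183 after Benjamini-Hochberg adjustment over the 11 pairs). The share of gene pairs in general without overlap was not computed, so this count has no baseline. Of single tested rows, 19.8% were higher and 13.9% lower in 5Y without overlap. The KDM6A to KDM6B ratio differed most, from -3.42, -3.24 and -3.49 in 18M to -1.8, -2.49 and -2.53 in 5Y, a difference of 1.11. KDM6A therefore stayed the lower of the 2 in every library while the gap narrowed. The KDM5B to KDM5A ratio differed by -0.54, EHMT2 to EHMT1 by -0.48, EZH2 to EZH1 by -0.33, SETDB1 to SETDB2 by -0.31 and KAT6A to KAT6B by 0.23. Without 5Y replicate 1 the difference was -0.09 for SETDB1 to SETDB2 and -0.33 for KDM5B to KDM5A. The SETDB1 to SETDB2 ratio separated narrowly, at 1.51 to 1.67 in 18M against 0.82, 1.49 and 1.5 in 5Y. EZH2 to EZH1 was at 0.73 to 0.76 in the 5Y libraries against 0.93 to 1.22 in 18M. The ratios of HDAC2 to HDAC1, KDM1A to KDM1B, KAT2A to KAT2B, PRMT5 to PRMT1 and SIRT6 to SIRT1 overlapped (exact permutation p from 0.2 to 0.6). For PRMT5 to PRMT1 the spread came from 5Y replicate 1, at -0.37 against 0.77 and 1.07 in the other 2. This ratio used the higher row of PRMT5 only.

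**Figure D4:**
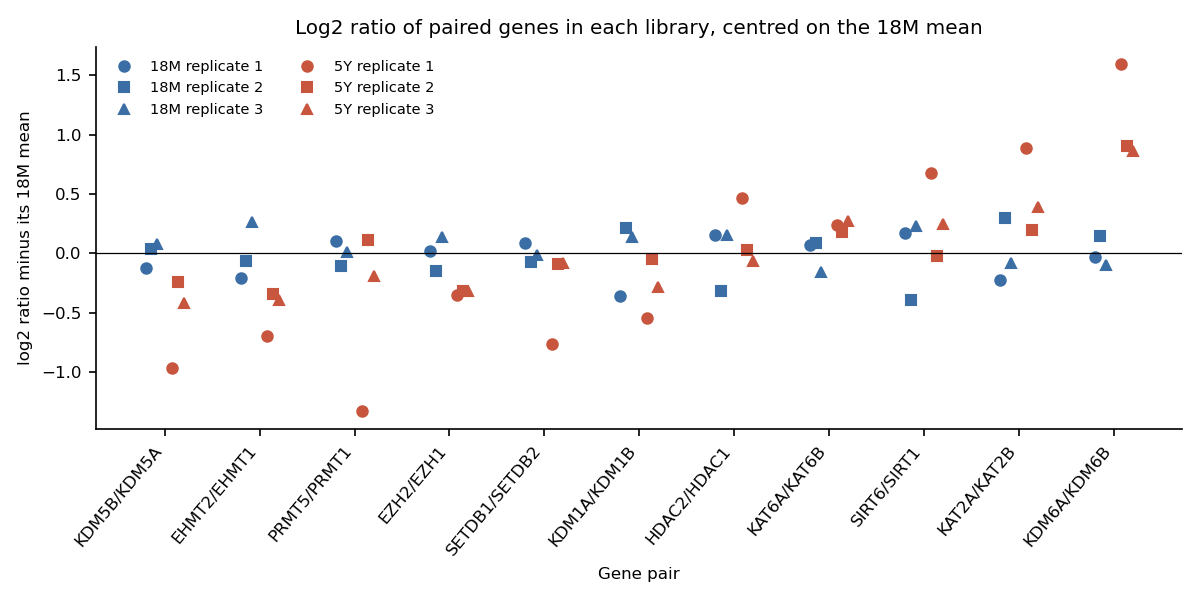
Log2 ratio of FPKM + 0.1 between paired genes in each input library, shown as the distance from the mean ratio of the 18M libraries (blue 18M, red 5Y; shape gives the replicate). KDM6A/KDM6B lies highest in 5Y, and KDM5B/KDM5A and EHMT2/EHMT1 lie below all 18M libraries.

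The authors' table of m6A peaks that differ between the ages lists 12 peaks in 9 of the 87 rows (10.3%, against 5.63% of all rows). Among tested rows these are 12.5%, against 9.29% of all tested rows. The table gives position and annotation, but no fold, p or direction of a peak, so it does not say at which age the mRNA carried more m6A. Across all differential peaks, the study reported most as up after sexual maturity. Where a gene differed in both peak and mRNA, it reported that most moved in the same direction. Neither report was matched to these 12 peaks. The 9 genes are KDM6A with 3 peaks, KMT2C with 2, and EHMT1, KAT14, KAT6B, KDM5C, KDM7A, KMT2B and SUV39H1 with 1 each. They are 4 methyltransferases, 3 demethylases and 2 acetyltransferases, and no deacetylase, arginine methyltransferase or bromodomain row has a peak.

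In build LU_Bosgru_v3.0, the peaks of KDM6A (minus strand) lie at chrX:107031058-107033591 in exon 21 of 30, chrX:107043449-107043647 in exon 18 and chrX:107048388-107048586 in exon 17. KDM5C, also on the minus strand, has its peak at chrX:98241009-98242478 in exon 20 of 28, and SUV39H1 on the plus strand at chrX:94406781-94407075 in exon 3 of 5. The X chromosome thus holds 5 of the 12 peaks and 3 of the 9 genes, while it holds 3.89% of all 1438 differential peaks and 3.65% of the 1207 genes with one, a pattern noticed after the values were seen. KDM6A alone has 3 of these 5 peaks. The share of the histone modifiers that lie on the X chromosome was not computed, so these shares have no matched baseline. On the autosomes, KMT2C (minus strand) has peaks at chr4:9927262-9928061 in exon 55 of 62 and chr4:9942527-9942777 in exon 46. EHMT1 (plus) has chr9:16649329-16651629 in exon 12 of 26, KAT14 (plus) chr12:29683813-29684321 in exon 6 of 10 and KAT6B (plus) chr27:31152694-31152893 in its last exon, the 18th. KMT2B (minus) has chr20:70098284-70099138 in exon 6 of 38, and KDM7A (plus) chr4:17894601-17895001 in the 3′ UTR.

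Exons hold 11 of the 12 peaks (75.9% of all differential peaks are annotated to exons), 1 lies in a 3′ UTR and 0 in a first exon. The median width was 455 bp against 398 bp over all peaks. Those of KDM6A in exon 21, EHMT1 and KDM5C exceed 1000 bp on the genome, a length that counts introns. Along the gene from its start, the peaks lie between 20% (KMT2B) and 99.1% (KAT6B) of its length, and those of KDM6A, KDM5C, KMT2C, KDM7A and KAT6B all lie past 75%.

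**Figure D5:**
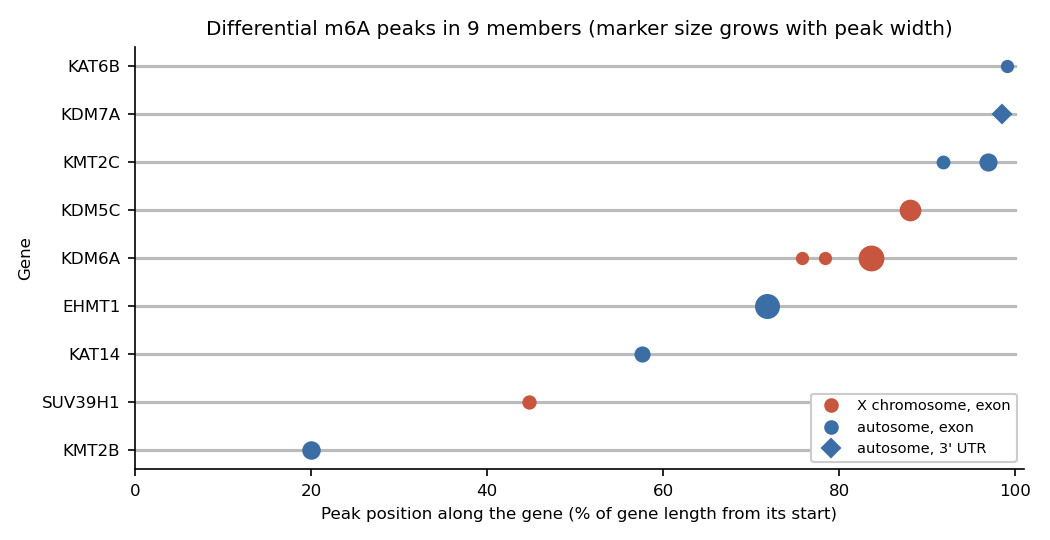
Position of each of the 12 differential m6A peaks along its gene, as the percentage of the gene's length from its start (red X chromosome, blue autosomes, diamond 3′ UTR; marker size grows with peak width). Peaks run from 20% in KMT2B to 99.1% in KAT6B, and the 3 of KDM6A lie between 75.8% and 83.6%.

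All 9 genes with a differential peak had a positive log2 difference in the input libraries, with a median of 0.48, against 0.01 for the tested histone modifiers without a peak. Over all 1156 tested genes with a peak, 774 differences were positive (67%) and the median was 0.18. Of the 9, KDM6A, KDM5C, KAT14, EHMT1 and SUV39H1 were called higher, and 7 did not overlap, all higher in 5Y, while among all tested genes with a peak 23.8% were called higher and 30.4% were higher without overlap. KMT2B and KAT6B overlapped between the ages. The peaks and the input levels come from the same animals and are not independent of each other, and peak detection can move with the level of an mRNA. This dependence was not tested.

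Genes that work with these enzymes were taken from a list of 99 partner symbols, of which 81 were tested. Of these, 10 were higher (12.3%, against 14.2% of all tested rows) and 4 lower (4.94%, against 10.9%) at an unadjusted p under 0.05, 0 had an adjusted p under 0.05 by limma, and the median log2 difference was 0.07. The largest rises were in NSD1 (0.88), a methyltransferase of lysine 36, RBBP7 (0.71), a histone-binding subunit shared by PRC2 and deacetylase complexes, and SIN3B (0.68), a scaffold of HDAC1 and HDAC2. The largest falls were in CDYL (-0.86), a reader of repressive methyl marks, CARM1 (-0.63), the arginine methyltransferase also called PRMT4, and RIOX1 (-0.62), a hydroxylase also reported to demethylate histones. Without 5Y replicate 1 RBBP7 was at 0.43 and CARM1 at -0.39. The calls of RBBP7 and CARM1 were lost without 18M replicate 1 or 3 and that of RIOX1 without 18M replicate 1, with leave-one-out differences of 0.43 to 0.92, -0.77 to -0.39 and -0.78 to -0.51. Of the 8 PRC2 partners 1, RBBP7, was called. PHF1, named after its values were seen, was at 36.1 to 38.0 FPKM in 18M and 26.6 to 33.2 FPKM in 5Y without overlap (-0.32 ± 0.14, limma unadjusted p = 0.064). A differential peak was listed for 9 partner genes (11.1% of those tested, against 9.29% of all tested rows), NSD1 among them.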

How the data were processed

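Poly(A) RNA of 6 yak testes was sequenced as m6A-selected and input libraries. Titles gave each sample's age group. The authors deposited FPKM per gene for the 6 input libraries and a table of differential m6A peaks. Per the methods and submitters' notes they trimmed reads with Trimmomatic, removed rRNA with SortMeRNA, aligned with HISAT2 2.0.4 to LU_Bosgru_v3.0, kept unique alignments, and called peaks with MeTDiff and annotated them with ChIPseeker. The FPKM program and its use of strand are not given in the sources used here. Unique alignment lowers the values of genes with near-identical copies. Fragment totals are not in the table, so no counting interval was computed. Peak lists of single ages were not used, since the files hold only a few rows of chromosome 1, and neither were IP levels.

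Rows with a mean of at least 0.5 FPKM were compared with limma 3.58.1 (R 4.3.3; lmFit, eBayes with trend, two-sided) on log2(FPKM + 0.1), which understates changes of low genes, with Benjamini-Hochberg adjustment over 12437 rows. Paralog ratios were compared by exact permutation. The limma step was tested on simulated data. Counts were made in Python 3.11.15 with pandas 2.3.3 and scipy 1.17.1, and figures with matplotlib 3.10.9. Separate animals are the replicates. Replicate numbers shared by the ages do not mark pairs. Alternatives were other pseudocounts (0.01 and 1), level minimums, scalings, eBayes without trend, a replicate block, and each library left out.

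The genes, role classes, partner list and marker lists were chosen with earlier results of these data known. Named genes were those with a differential peak, the 8 largest rises and falls with an unadjusted p under 0.05 and no overlap, the highest level in each class, the members of 14 planned paralog pairs (11 could be used), any gene with an adjusted p under 0.05, and of the partner list and of the markers the 3 largest called rises and falls.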

Additional observations from a re-analysis of the deposited data

How the results depend on the processing

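The 14 histone modifiers higher in 5Y became 8 to 18, and the 3 lower ones 0 to 6, when a library was left out. The lower count was 1 with eBayes without trend, 1 with libraries scaled to a common FPKM total and 0 with a replicate block. The count with an adjusted p under 0.05 ran from 0 to 13, and the median log2 difference from 0.0207 to 0.139, when a library was left out. The rows without overlap then ran from 25 to 39, a count that can only stay or rise with fewer libraries and so does not measure stability. Scaling to a common total moved the median of all tested rows from 0.04 to 0.17 and that of the histone modifiers to 0.20. The 14 calls in the partner list became 22 under that scaling and 5 to 35 when a library was left out. Same-numbered libraries did not deviate together (correlations -0.022, -0.091 and 0.007). The replicate block left 11 rows higher, and 6 of the 17 calls were lost. No called row changed direction under any alternative. Some uncalled values did change sign. Quantile normalization gave 0.0585 for BRD2, -0.0184 for EHMT2, -0.0115 for EZH1, 0.0631 for KDM1A, 0.0223 for KDM5B, 0.0484 for PRMT5 and -0.0061 for SIRT6. Scaling to a common total gave 0.0268 for KDM1A and 0.122 for KDM4B. Leaving out a library gave -0.0975 to 0.113 for EHMT2, -0.0245 to 0.0484 for EZH1, -0.0154 to 0.119 for HDAC1, -0.00672 to 0.172 for KAT2B, -0.104 to 0.0464 for KDM4B, -0.29 to 0.149 for PRMT5, -0.0191 to 0.0401 for SETDB2 and -0.0204 to 0.246 for the ratio of HDAC2 to HDAC1. The causes were not tested. Matching peaks by symbol in place of identifier gave 10 rows, since both rows of KMT2C then count, and keeping peaks of at most 1000 bp gave 7. The depth behind single values is unknown, and 3 animals per age limit the precision of every difference.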
